A study of Mus musculus with 24 samples.

Results

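The genes described here are 8 transcription factors that mark excitatory neurons of the cortex by layer: Cux1, Cux2 and Rorb of the upper layers, Fezf2, Bcl11b, Tbr1 and Foxp2 of the deep layers, and Neurod6 of excitatory neurons at large. They were chosen by symbol, and all 8 were found among the 14769 gene symbols of the 4 expression tables, each in every table. Excitatory neurons of the cortex are born in sequence and settle in layers, deep layers first. Each layer keeps a set of transcription factors that first sets and then maintains its identity, so in bulk tissue their levels depend in part on which neurons a sample holds. In bulk RNA, fewer cells of a type and less RNA per cell cannot be told apart.

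The samples were cortex from male mice aged 3 to 4 months whose middle cerebral artery was occluded for 1 h and then reperfused for 1 day, a model of ischemic stroke. Wild-type (WT) mice and knockout (KO) mice were compared, the latter lacking ciRS-7, also named Cdr1as, a circular RNA that binds miR-7. The strain given for every animal, WT included, is C57BL/6N-Cdr1asem1Nikr, so all groups share that background, the surgery, the sex and the time point. Each sample is marked CL or PI, marks that the labels leave unexplained and that are used as given. The 4 groups were CL WT and CL KO, PI WT and PI KO, with 6 libraries each. Per the labels, same-numbered CL and PI libraries of a genotype came from the same animal, and the values bore this out only in part. No animals without the surgery were analysed here, so CL is the reference for PI and carries the operation too.

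The unit was log2 CPM, reads of a gene relative to library size, in 4 tables of 2 groups each. They list 14489 genes where CL WT is set beside PI WT, 14338 for the KO pair of sides, 14452 for the 2 PI groups and 14323 for the 2 CL groups. In each table and group the lowest and highest of the 6 values of a gene had been drawn in to the quartiles. The 4 inner values could be solved, and the text gives the second lowest, the median and the second highest of a group. Groups are called apart where these inner 4 values do not overlap. The threshold for a call was an adjusted p of 0.05 in a moderated trimmed-mean test built on limma, with Benjamini-Hochberg adjustment over every gene of the table. Differences are given with their standard error (SE).

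Effective depth read from the values ranged from 3.73 to 10.5 megareads a library, and 1 library, CL KO replicate 6, was the shallowest. That library was among the drawn-in extremes in 90.6% of genes, where an even share is 66.7%, and PI WT replicate 4 in 82.6% of them, and members' calls that turned without either are given below. Pairs of libraries of a group shared equal values in 7.42% to 24.98% of genes, so none was deposited as a copy of another. Cdr1as was at 2610 to 2931 CPM in PI WT and 3434 to 3801 CPM in CL WT. It was at no more than 0.166 CPM in PI KO and 0.0601 CPM in CL KO, so the groups followed their genotype labels. These are drawn-in values, in which a single library at either end of a group would not show. The member with the fewest reads, Fezf2, rested on about 87.4 reads at the smallest depth.

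Rorb, a nuclear receptor that marks layer 4 and is needed there for sensory maps, showed the largest PI to CL difference of the 8 in both genotypes. The gene lies at chr19:18930605-19111196 on the minus strand of GRCm38 (the build also named mm10). Its 2 promoter windows in RefSeq (GRCm38.p6), each running from 250 bases before to 50 after a start site, are printed because Rorb carries the main result. The first covers the start of the gene as GENCODE M21 places it, at chr19:19111147-19111446, and the second lies within the gene at chr19:19001068-19001367, both read on the minus strand. Capitals mark the E-box CANNTG, the site of basic helix-loop-helix factors such as Neurod6.
Rorb first window: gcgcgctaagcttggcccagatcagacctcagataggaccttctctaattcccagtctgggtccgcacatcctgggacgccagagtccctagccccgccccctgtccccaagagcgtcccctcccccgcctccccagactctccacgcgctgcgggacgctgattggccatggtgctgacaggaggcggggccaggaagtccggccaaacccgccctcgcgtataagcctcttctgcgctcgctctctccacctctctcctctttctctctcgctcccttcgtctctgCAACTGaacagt
Rorb second window: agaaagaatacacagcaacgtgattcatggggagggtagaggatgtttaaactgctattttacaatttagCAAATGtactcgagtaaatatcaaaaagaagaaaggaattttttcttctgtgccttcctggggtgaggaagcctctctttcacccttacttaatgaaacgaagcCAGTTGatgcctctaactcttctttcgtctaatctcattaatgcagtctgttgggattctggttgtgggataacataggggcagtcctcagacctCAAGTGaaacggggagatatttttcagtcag
The first window held 1 E-box and the second held 3, and 72.3% of 32851 RefSeq promoter windows of this length held at least 1. The ROR half-site AGGTCA, searched on both strands, was in neither window and in 16.3% of all windows. Such matches describe the letters only.

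In WT animals Rorb stood at 7.83, 7.95 and 8.25 log2 CPM (second lowest, median, second highest) in CL and at 6.99, 7.26 and 7.36 in PI. Every inner PI value lay below every inner CL value. Rorb fell by 0.78 on the log2 scale from CL WT to PI WT (SE 0.13, 95% interval -1.05 to -0.50, adjusted p = 0.00186, n = 6 and 6 by the limma-based test), which is 1.71-fold lower. Differences of the deposited values within animals ran from -0.97 to -0.56, and their common sign is fixed by the lack of overlap of the drawn-in values. Among all genes compared here 10.6% were called, 5.40% lower, and 13.1% lay apart with PI lower. Of the 8 layer genes 2 were called lower and lay apart, Rorb and Cux1. Leaving out any 1 library kept the Rorb call in all 12 fits.

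In KO animals Rorb stood at 7.63, 7.80 and 8.02 log2 CPM in CL and at 6.96, 7.26 and 7.60 in PI. The groups were again apart, but the inner PI KO values fell into a low pair near 6.96 and a high pair near 7.60, and the spread was wider than in PI WT. The KO difference was -0.55 (SE 0.18, 95% interval -0.93 to -0.17), and it missed the call, with an adjusted p of 0.0678. Within animals the deposited values differed by -1.02 to -0.075, again with the sign fixed by the drawn-in values. With the animal as a replicate block, limma on the deposited values gave an adjusted p of 0.00193, a fit that reads the drawn-in spread as real. The difference between genotypes in the PI to CL change was 0.23 (95% interval -0.28 to 0.73, adjusted p = 0.992), so the 2 genotypes were not shown to differ. The plot of levels by group shows these values for all 8 genes.

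**Figure D1:**
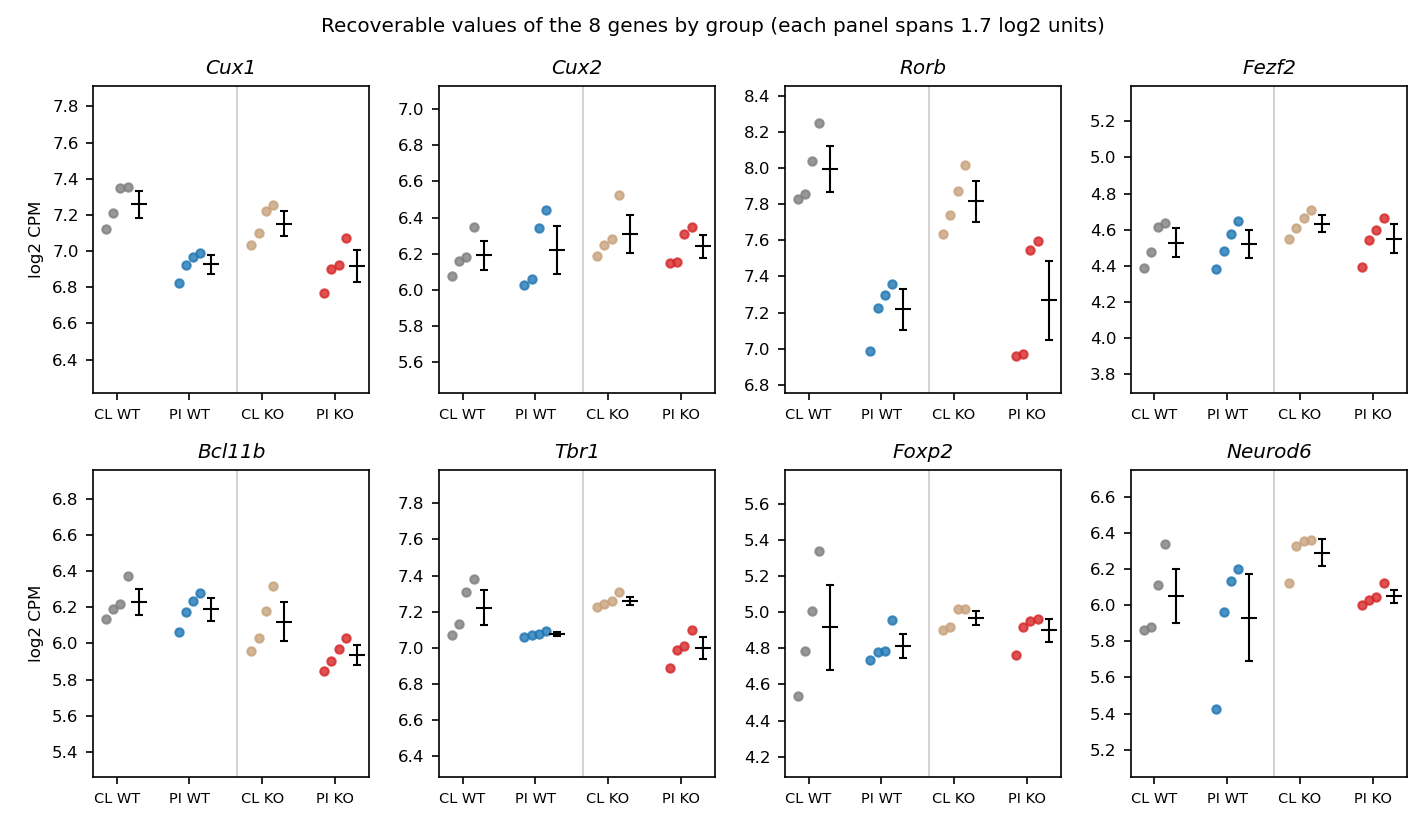
Levels of the 8 genes (log2 CPM, vertical axis) in the CL and PI groups of WT and KO, 4 recovered inner values per group as points in rising order, with their trimmed mean and its standard error as a bar; the grey line parts 2 separately scaled tables. Rorb in PI lies below Rorb in CL in both genotypes, whereas Fezf2, Foxp2 and Cux2 overlap throughout.

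Cux1 (chr5:136248135-136567490, minus strand), a homeodomain factor of layers above the deep ones, was the other gene called in WT. It stood at 7.12, 7.28 and 7.36 log2 CPM in CL WT and at 6.82, 6.95 and 6.99 in PI WT, with the groups apart. Cux1 fell by 0.33 (SE 0.077, 95% interval -0.50 to -0.17, adjusted p = 0.0148), a 1.26-fold lower level. This call rested in part on 1 library: without CL WT replicate 6 the adjusted p was 0.0523. In KO, Cux1 stood at 7.03, 7.16 and 7.26 in CL and at 6.77, 6.91 and 7.07 in PI, and the inner values overlapped. The KO difference of -0.24 (SE 0.091) was not called (adjusted p = 0.127), and the blocked limma fit gave an adjusted p of 0.00141. The antisense gene Gm16599 shares 394 exon bases with Cux1, 1.97% of its exon length, and whether counting used strand is not given in the sources used here.

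Cux2 (chr5:121856366-122050102, minus strand), the paralog of Cux1 with a narrower place in layers 2 to 4, did not follow it. Cux2 stood at 6.07, 6.17 and 6.35 log2 CPM in CL WT and at 6.03, 6.20 and 6.44 in PI WT, and in KO at 6.19, 6.26 and 6.53 in CL and 6.15, 6.23 and 6.35 in PI. All groups overlapped. The PI minus CL difference was 0.028 in WT (95% interval -0.23 to 0.28, adjusted p = 0.920) and -0.069 in KO (95% interval -0.28 to 0.15, adjusted p = 0.731). The difference of Cux1 from Cux2 was not tested.

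Among the deep layer factors, Tbr1 (chr2:61802930-61814114, plus strand), a T-box factor of layer 6 neurons that project to the thalamus, was the 1 member called in KO. Tbr1 stood at 7.23, 7.25 and 7.31 log2 CPM in CL KO and at 6.89, 7.0 and 7.10 in PI KO, with the groups apart. It fell by 0.26 (SE 0.067, 95% interval -0.40 to -0.12, adjusted p = 0.0272), a 1.20-fold lower level. Of all genes compared in KO 10.0% were called, 4.94% lower, and 13.4% lay apart with PI lower. Of the 8 layer genes 1 was called lower, and 2 lay apart, Tbr1 and Rorb. Leaving out 1 library removed the Tbr1 call in 6 of 12 fits (PI KO 2 or 5, CL KO 2, 4, 5 or 6), with adjusted p from 0.0116 to 0.0703 over the 12. Without the shallow CL KO replicate 6, Tbr1 stood at -0.24 with an adjusted p of 0.0512. In WT, Tbr1 stood at 7.07, 7.22 and 7.38 in CL and at 7.06, 7.08 and 7.10 in PI, where the PI values spanned far less than the CL values. Its WT difference of -0.15 (95% interval -0.32 to 0.030) was not called (adjusted p = 0.308), and the blocked limma fit gave an adjusted p of 0.0233. The genotype difference in the Tbr1 change was -0.12 (95% interval -0.34 to 0.11, adjusted p = 0.992).

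Fezf2 and Bcl11b act in a chain in layer 5 neurons that project below the cortex, Fezf2 as the zinc-finger factor that specifies them and Bcl11b, also named Ctip2, downstream of it. Fezf2 (chr14:12342094-12348189, minus strand) stood at 4.39, 4.54 and 4.64 log2 CPM in CL WT and at 4.38, 4.53 and 4.65 in PI WT, nearly the same 3 values. Its difference was -0.0077 in WT (95% interval -0.23 to 0.21) and -0.082 in KO (95% interval -0.29 to 0.13), where it stood at 4.55, 4.64 and 4.71 in CL and at 4.39, 4.57 and 4.67 in PI. The adjusted p values were 0.977 and 0.664.

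Bcl11b (chr12:107910403-108003602, minus strand) stood at 6.14, 6.20 and 6.37 log2 CPM in CL WT and at 6.06, 6.20 and 6.28 in PI WT, with equal medians at 2 decimals. In KO it stood at 5.96, 6.10 and 6.32 in CL and at 5.85, 5.93 and 6.03 in PI, and the inner values overlapped. The PI minus CL difference was -0.041 in WT (95% interval -0.22 to 0.14, adjusted p = 0.821) and -0.18 in KO (95% interval -0.40 to 0.031, adjusted p = 0.280), where the blocked limma fit gave 0.00741.

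Foxp2 (chr6:14901349-15441977, plus strand), a forkhead factor of layer 6 best known from speech and song circuits, stood at 4.54, 4.90 and 5.34 log2 CPM in CL WT and at 4.73, 4.78 and 4.96 in PI WT. In KO it stood at 4.90, 4.97 and 5.02 in CL and at 4.76, 4.94 and 4.96 in PI. The groups overlapped in both genotypes, and the difference was -0.10 in WT (95% interval -0.49 to 0.29, adjusted p = 0.792) and -0.067 in KO (95% interval -0.25 to 0.12, adjusted p = 0.685). The WT interval was wide enough to hold a change of the size seen for Cux1.

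Neurod6 (chr6:55677822-55681263, minus strand) is a basic helix-loop-helix factor held by most excitatory neurons of the cortex and hippocampus. It stood at 5.86, 6.00 and 6.34 log2 CPM in CL WT and at 5.43, 6.05 and 6.20 in PI WT, a wide spread in PI. In KO the spread was narrow, with 6.12, 6.34 and 6.36 in CL and 6.00, 6.04 and 6.12 in PI, and the inner values overlapped. The difference was -0.12 in WT (SE 0.20, adjusted p = 0.784) and -0.24 in KO (SE 0.080, 95% interval -0.41 to -0.069, adjusted p = 0.0754). Without the shallow CL KO replicate 6 the KO difference was -0.30 with an adjusted p of 0.0146, so Neurod6 took the place of Tbr1 as the 1 member called. Without CL KO replicate 1 (6.52 megareads) Tbr1 kept its call, and the Neurod6 difference was also -0.30, with an adjusted p of 0.0189. The blocked limma fit gave an adjusted p of 0.000353 in KO.

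**Figure D2:**
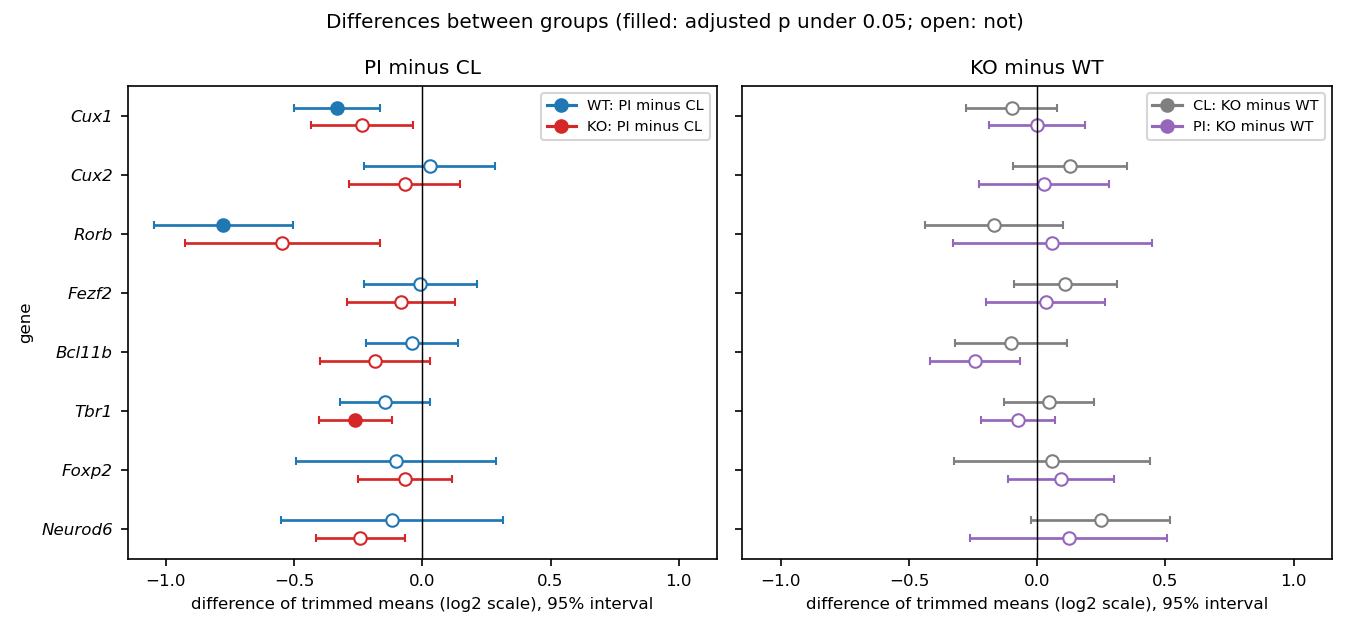
PI minus CL (left) and KO minus WT (right) differences of the 8 genes (log2 scale) from the trimmed-mean test, with 95% intervals as bars, filled points for adjusted p under 0.05 and open points otherwise. The Rorb interval lies below 0 in both genotypes, at -0.78 in WT and -0.55 in KO.

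Side by side, the 8 genes had a median PI minus CL difference of -0.11 in WT, with 7 of 8 below 0, and -0.21 in KO, with 8 of 8 below 0. The median over all genes was 0.011 in WT and -0.00068 in KO. The trimmed-mean test called 2 members in WT and 1 in KO. With the animal as a replicate block, limma on the deposited values called 3 members in WT (Cux1, Rorb and Tbr1) and 5 in KO (Cux1, Rorb, Bcl11b, Tbr1 and Neurod6). The same fits called 6614 of all genes (45.6%) in WT and 6759 (47.1%) in KO.

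**Figure D3:**
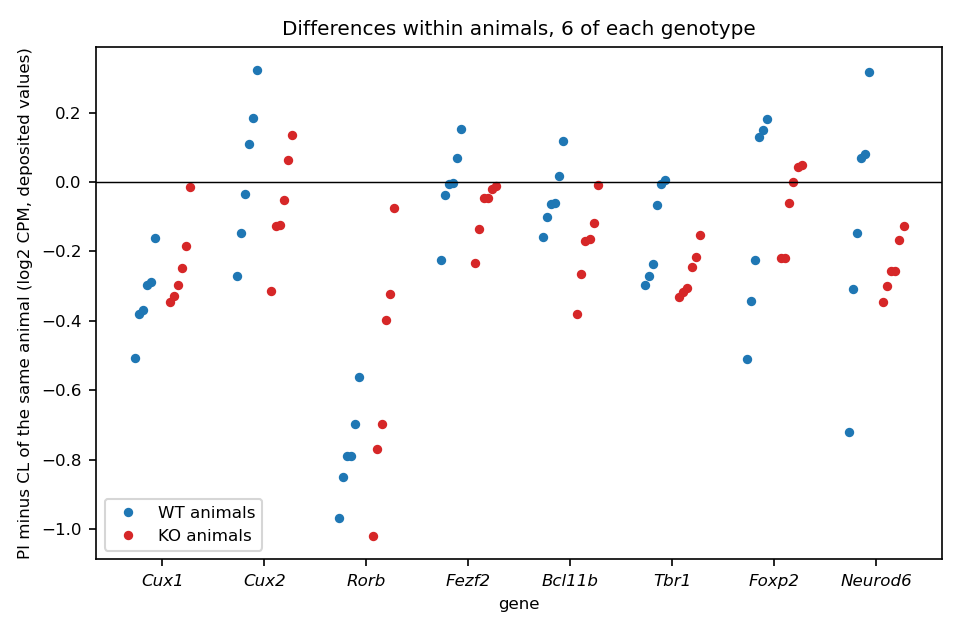
PI minus CL difference of each animal (log2 scale, deposited values) for the 8 genes, WT and KO. For Rorb the points run from -0.97 to -0.56 in WT and from -1.02 to -0.075 in KO; where the drawn-in values of PI and CL do not overlap, as for Rorb and Cux1, any pairing of animals gives points on 1 side of 0.

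The summed level of general neuron genes was lower in PI as well, as were those of astrocyte markers and, in WT, oligodendrocyte markers, and their part in the layer gene differences was not tested. Over 15 pan-neuron markers the summed level ran from 9680 to 10218 CPM in CL WT and from 8353 to 9126 CPM in PI WT, and from 9553 to 9923 CPM in CL KO and 8165 to 8905 CPM in PI KO. Over 10 astrocyte markers it ran from 7816 to 8210 CPM in CL WT and 6972 to 7400 CPM in PI WT, and from 7805 to 8323 CPM in CL KO and 6862 to 7466 CPM in PI KO. Over 10 oligodendrocyte markers it ran from 2177 to 2378 CPM in CL WT and 1522 to 2145 CPM in PI WT, and from 1750 to 2353 CPM in CL KO and 1685 to 1901 CPM in PI KO, with overlap in KO. These sums use the drawn-in values, which narrows their ranges. Of the 15 neuron markers, 4 fell and 1, Uchl1, a deubiquitinating enzyme of neurons, rose in WT (0.26, adjusted p = 0.0378), and 5 fell and 0 rose in KO. Without PI WT replicate 4 the WT count was 6 lower and 0 higher. Among all genes 5.40% were called lower in WT and 4.94% in KO. The largest falls by p of these markers were Nefl, a neurofilament subunit, at -0.41 in WT and -0.31 in KO, and Syn1, a synaptic vesicle protein, at -0.23 and -0.33. Taken relative to the median pan-neuron difference (-0.17 in WT and -0.20 in KO), Rorb was still called in WT, while Cux1 stood at -0.16 (adjusted p = 0.128) and Tbr1 in KO at -0.062 (adjusted p = 0.506). On that scale 2 of the 8 genes were below 0 in WT and 4 of 8 in KO, and the median over all genes was 0.18 and 0.20.

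A wider list of 18 upper layer genes, of which 17 were measured, lay mostly below 0. Like the other lists, it was chosen with earlier results of these data known. In WT 7 of 17 fell and 0 rose, with a median of -0.33, and in KO 8 fell and 0 rose, with a median of -0.40. Among all genes 5.40% were called lower in WT and 4.94% in KO. In WT the smallest p values were those of Calb1, a calcium-binding protein (-0.72, adjusted p = 2.12e-05), Kcnh5, a potassium channel (-0.72, adjusted p = 0.000353), and Rasgrf2, a Ras exchange factor (-0.38, adjusted p = 0.00116). In KO they were Calb1 (-0.55, adjusted p = 0.000625), Lhx2, a LIM homeodomain factor (-0.53, adjusted p = 0.00233), and Otof, a vesicle fusion protein (-1.19, adjusted p = 0.00565). The summed level of the 17 genes ran from 1286 to 1397 CPM in CL WT and 1062 to 1111 CPM in PI WT. Relative to the pan-neuron markers 5 still fell in WT and 4 in KO, while Inhba in WT and Limch1 in KO were called higher. Scnn1a, a layer 4 channel subunit named after its values were seen because it shares a layer with Rorb, stood at -0.33 in WT (adjusted p = 0.569) and -1.04 in KO (adjusted p = 0.105).

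Deep layer genes were called in both directions. Of 24 listed, 23 were measured, and in WT 2 fell and 2 rose, with a median of -0.079 (1 fell and 2 rose without PI WT replicate 4). Nr4a2, a nuclear receptor of the deepest cells that is also induced by activity, fell by 1.56 (adjusted p = 3.35e-05), and Npr3, a natriuretic peptide receptor, fell by 0.24 (adjusted p = 0.0446). Syt6, a synaptotagmin of layer 6, rose by 0.50 (adjusted p = 0.0171), and Ccn2, a matrix protein of layer 6b, rose by 0.39 (adjusted p = 0.0237). In KO 2 fell and 1 rose, with a median of -0.14: Nr4a2 fell by 1.24 (adjusted p = 0.0312), Foxp1, a forkhead factor, fell by 0.23 (adjusted p = 0.0432), and Syt6 rose by 0.39 (adjusted p = 0.0157). Relative to the pan-neuron markers 1 deep layer gene was called lower (Nr4a2) and 4 higher (Ccn2, Deptor, Syt6 and Rprm) in WT, and 1 lower (Nr4a2) and 2 higher (Ccn2 and Syt6) in KO. On that scale the medians of the deep list were 0.090 in WT and 0.057 in KO, and those of the upper list -0.16 and -0.20. The median over all genes on that scale was 0.18 in WT and 0.20 in KO, above those of both lists. Of all 14489 genes 3518 were called higher and 275 lower in WT, and of 14338 genes 4133 and 186 in KO. The difference between the lists was not tested.

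**Figure D4:**
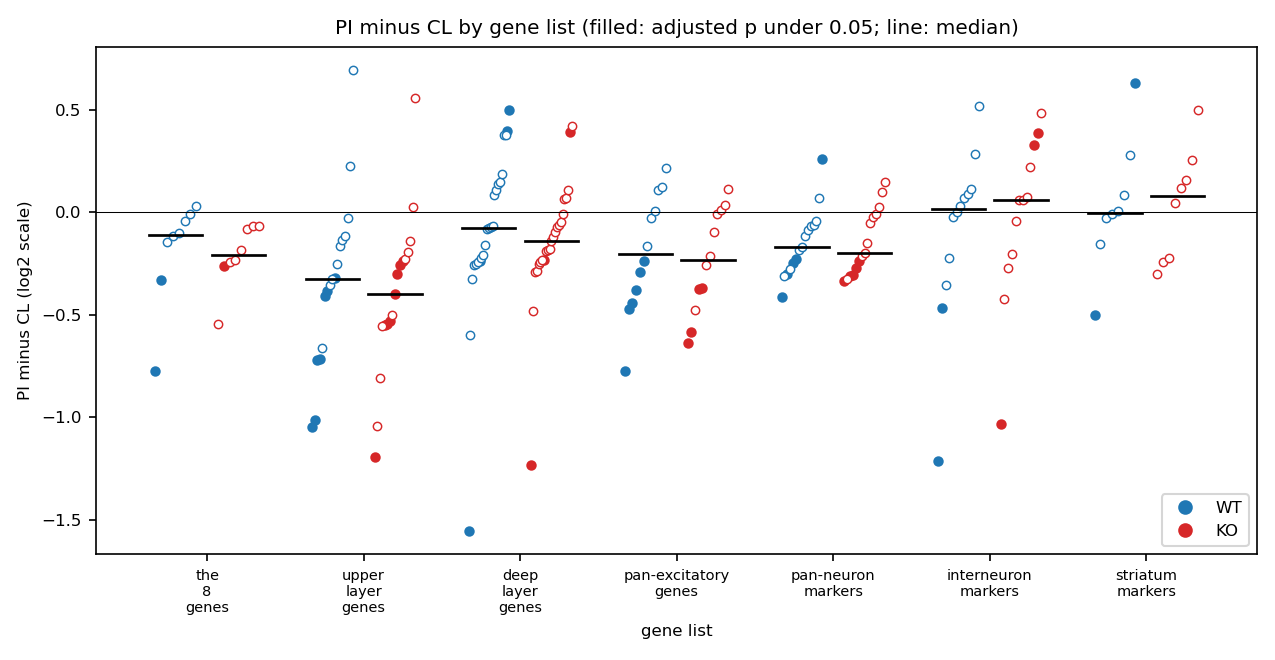
PI minus CL differences (log2 scale) of single genes in the gene lists, WT and KO, 1 point a gene, filled where called, with the list median as a line. The upper layer list lies mostly below 0, with 15 of 17 genes below 0 in each genotype, and the deep layer list has 14 of 23 below 0 in WT and 18 of 23 in KO.

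Of 12 general genes of excitatory neurons, 6 fell and 0 rose in WT (median -0.20), where 5.40% of all genes were called lower. In KO 4 of the 12 fell and 0 rose (median -0.24), where 4.94% of all genes were called lower. Relative to the pan-neuron markers 2 were called lower (Camk2a and Bhlhe22) and 2 higher (Nptx1 and Neurod2) in WT, with a median of -0.032, and 4 lower and 0 higher in KO, with a median of -0.036. With groups centred on the median gene the KO count was 7 lower. Bhlhe22, a helix-loop-helix factor, stood at -0.78 in WT and -0.64 in KO, and Camk2a, the kinase of excitatory synapses, at -0.44 and -0.59. Nrgn, a calmodulin-binding protein of dendrites, stood at -0.38 and -0.37, and Grin2b, an NMDA receptor subunit, at -0.24 and -0.37, all 4 genes called in both genotypes. Mef2c (-0.29, adjusted p = 0.0139) and Neurod1 (-0.47, adjusted p = 0.0352) were called in WT. Slc17a7, the vesicular glutamate transporter of cortical excitatory neurons, named after its values were seen, stood at 0.0068 in WT (adjusted p = 0.968) and -0.098 in KO (adjusted p = 0.596).

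Some markers of neighbouring regions and other cells were called between sides too, though several of these lists held at most 1 call per genotype. For scale, calls in either direction made up 10.6% of the whole WT table and 10.0% of the whole KO table. The list counts were not tested against these shares. The part of these markers in the results above was not tested. Of 13 striatum markers 8 were analysed here. In WT 1 fell, the phosphodiesterase Pde10a (-0.50), and 1 rose, the phosphatase inhibitor Ppp1r1b (0.63), while in KO 0 were called by the limma-based test (3 at an unadjusted p under 0.05). Drd1, a dopamine receptor that defines striatal projection neurons, was not called (0.0042 in WT and 0.12 in KO). The summed level of the 8 ran from 220.3 to 275 CPM in CL WT and 213 to 252 CPM in PI WT, and from 215 to 236 CPM in CL KO and 209 to 235 CPM in PI KO, with overlap in both genotypes. Of 7 thalamus markers 1, Plekhg1, rose in each genotype (0.42 and 0.40), and of 6 hippocampus markers 1 rose and 1 fell in each. At an unadjusted p under 0.05 by the limma-based test, 3 hippocampus markers were lower and 1 higher in WT (list median -0.19). In KO 4 were lower and 1 higher (list median -0.33). The lowest difference of that list, not called, was -1.21 in WT and -1.17 in KO. Wfs1, which rose by 0.74 in WT and 0.54 in KO, is on the hippocampus list, with Neurod1 the fall in WT and Rgs14 in KO (-0.49).

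Of 12 interneuron markers 2 fell and 0 rose in WT, and 1 fell and 2 rose in KO. Lamp5, also held by upper layer excitatory cells, stood at -1.21 in WT and -1.03 in KO, Vip at -0.47 in WT, and Gad2 and Npy at 0.38 and 0.33 in KO. Of 10 astrocyte markers 2 rose and 3 fell in WT and 2 rose and 1 fell in KO, led by Gfap, the filament of reactive astrocytes (1.88 and 2.19), and the water channel Aqp4 (0.27 and 0.41). The gap junction subunit Gja1 stood at -0.35 and -0.43, and the glutamate transporter Slc1a2 at -0.23 in WT. Of 10 microglia markers 4 rose and 2 fell in WT and 4 rose and 1 fell in KO, with Itgam at 1.08 and 0.95 and C1qa at 0.69 and 0.79. The resting-state receptor P2ry12 stood at -0.82 and -0.75, and Siglech at -0.96 in WT. Of 10 oligodendrocyte markers 1, Cnp, fell in WT (-0.41) and 0 were called in KO by that limma-based test (1 at an unadjusted p under 0.05). Of 10 endothelial markers 0 were called in WT by the limma-based test (4 at an unadjusted p under 0.05) and 1, Slco1a4, fell in KO (-0.48). The 1 measured marker each of neutrophils and monocytes and of choroid plexus was not called in either.

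None of the 8 genes was called between genotypes on either side. In PI, 0 of 8 were called between KO and WT, where 0.0208% of all genes were called by the limma-based test and 5.75% had an unadjusted p under 0.05, as 1 member did. Bcl11b came closest: it stood at 5.88, 5.97 and 6.07 log2 CPM in PI KO and at 6.09, 6.23 and 6.30 in PI WT, with the inner values apart, PI KO lower, as in 4.57% of all genes there. Its difference was -0.24 (SE 0.081, 95% interval -0.42 to -0.067, unadjusted p = 0.0107, adjusted p = 0.854). The other 7 had adjusted p values of at least 0.909, and their differences ran from -0.075 for Tbr1 to 0.12 for Neurod6.

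In CL, 0 of 8 were called between KO and WT, where 0.0279% of all genes were called by the limma-based test and 5.73% had an unadjusted p under 0.05, as 0 members did. Neurod6 stood at 6.09, 6.31 and 6.34 log2 CPM in CL KO and at 5.83, 5.96 and 6.30 in CL WT, with overlap. Its difference was 0.25 (95% interval -0.025 to 0.52, unadjusted p = 0.0712, adjusted p = 0.878). Rorb was at -0.17 (95% interval -0.44 to 0.10, adjusted p = 0.917), Cux2 at 0.13 and Fezf2 at 0.11. For the genotype difference in the PI to CL change 0 of 8 and 0 of 14211 genes were called (0%), where 646 genes (4.55%) had an unadjusted p under 0.05 and none was a member. No gene of the upper layer, deep layer or excitatory lists was called for genotype on either side. These comparisons share groups with the PI to CL ones, so their values are given side by side only.

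Compared per kilobase of GENCODE M21 exon, which allows levels of different genes to be set against each other, the order of the first 3 genes and of the last was the same in all 4 groups of the PI to CL tables. In CL WT the means were 30.8 CPM per kilobase for Neurod6, 27.2 for Tbr1 and 23.0 for Rorb, and the inner ranges of these neighbours overlapped. Bcl11b at 9.25, Cux1 at 7.65, Fezf2 at 7.58 and Cux2 at 7.24 formed a lower set, and of these the neighbours overlapped from Cux1 to Cux2 but Bcl11b lay above Cux1. Foxp2 was lowest at 1.85. In the other 3 groups the inner range of Rorb lay below that of Tbr1. In PI WT Rorb stood at 13.4 and Tbr1 at 24.6, and Cux1 moved from the fifth place to the seventh at 6.08. In PI KO Rorb stood at 13.9 against 20.3 in CL KO, and Tbr1 at 23.3 against 27.9.

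The genes most like each member across the 12 libraries of each PI to CL table were taken by the mean of the WT and KO Pearson correlations, over 14211 genes. The libraries share the PI to CL difference and the drawn-in extremes, which raise such values, so they are a description. For Rorb these were Kcnh5, Kcnk2 and Kitl (0.973, 0.973 and 0.972), and Kcnh5 is also on the upper layer list. For Cux1 they were Dcbld2, Mlph and Rcan2 (0.940, 0.933 and 0.929), and for Tbr1 Fxyd7, Marcks and Npas2 (0.929, 0.896 and 0.894). For Neurod6 they were Ptpra, Mllt3 and Mettl23 (0.881, 0.827 and 0.808), for Cux2 Tut1, Ipo13 and Ap1g2 (0.820, 0.817 and 0.810), and for Bcl11b Ryr3, Alg1 and Ankrd40 (0.803, 0.791 and 0.789). Fezf2 (St6galnac5, Ergic3 and Nme3) and Foxp2 (Gm43130, Phtf2 and Rasgrp2) had the lowest first values, 0.774 and 0.758. No member was among the 3 genes most like another, though Cux1 and Rorb came close at a mean correlation of 0.927.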

How the data were processed

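Ribosome-depleted total RNA of 24 cortex libraries was sequenced, per the labels' protocols with TRIzol, TURBO DNA-free, RiboCop and the CORALL kit. The deposited values are log2 CPM in 4 tables, and the genome build was mm10 per the submitters' processing notes. The aligner, counter, strand use and scaling are not given in the sources used here. Tables were scaled separately (a library's median shift between its tables was 0.0256 to 0.0364 in log2 units), so tests stayed within a table.

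In every gene and group the deposited log2 values were drawn in to the group quartiles (100% of genes), a step seen in the values. The 4 inner values were solved from this. Their mean and Winsorized sum of squares were passed to limma 3.58.1 in R 4.3.3 (empirical Bayes step with a trend, two-sided, Benjamini-Hochberg over the table, called under 0.05). The test was tried on simulated data. Depth was read from the steps of low CPM values, where 77.6% to 90.2% were whole within 0.03 read. The floor of 3 reads was 0.286 to 0.804 CPM, and such limits cover counting error only.

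Libraries were grouped by title. The members and the 14 lists were chosen with earlier results of these data known. Named genes were the 8 members, the called genes of the layer and excitatory lists (the 3 with the smallest p in each direction where over 6 were called), and up to 2 in each direction from other lists. CL and PI libraries of a number come from the same animal per the labels. Over genes with a mean of at least 5 CPM, deviations of such pairs correlated at -0.087 to 0.57 in WT and -0.13 to 0.23 in KO. The best match was the library of the same number for 3 of 6 numbers in WT and 2 of 6 in KO. The animal block could be fitted only to the deposited values. Alternatives were limma on the deposited values, the block, no trend, 2 other scalings, log2(CPM + 1), a filter at a mean of 1 CPM, and each library left out. The list counts without a single library or on another scaling were chosen after seeing the data. A marker of the striatum list is not reported here and was left out of that list's counts and sums.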

Additional observations from a re-analysis of the deposited data

How the results depend on the processing

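The Rorb fall in WT kept its call under every alternative run. Of the 8 members, the number called in WT was 1 with no trend in the prior variance (Cux1 adjusted p = 0.0691), 1 relative to the pan-neuron markers, and 1 to 2 with a library left out. In KO it was 5 with limma on the deposited values and 5 with the replicate block, 0 with no trend, 2 with groups centred on the median gene (Tbr1 and Neurod6), 0 relative to the pan-neuron markers, and 0 to 2 with a library left out. For PI KO against PI WT it was 1 with limma on the deposited values and 1 with the block (Bcl11b). For CL KO against CL WT it was 1 with limma on the deposited values (Neurod6) and 3 with the block (Cux2, Rorb and Neurod6). Among all genes the same fits called 2388 and 1800 of 14452 in PI, and 2311 and 1868 of 14323 in CL. The member counts were not tested against these. The block changed no interaction call of the 8 members. KO and WT mice share only a number, with pair correlations of -0.29 to 0.21 in PI and -0.24 to 0.18 in CL, and 1 of 6 numbers in each matched best with their own. The deposited spread is drawn in, so limma on it called 6459 and 6666 of all genes (44.6% and 46.5%) against 1537 and 1440 (10.6% and 10.0%). No trend gave 1015 and 739, and the pan-neuron reference 3793 (3518 higher, 275 lower) and 4319 (4133 higher, 186 lower). Median centring moved the split of higher and lower calls from 754 and 783 to 636 and 1053 in WT, and from 732 and 708 to 589 and 1017 in KO. Signs turned for uncalled members. Centring gave -0.0049 for Cux2 in WT and 0.0015 for Cux1 in PI KO against PI WT. Relative to pan-neuron markers, WT gave 0.16 for Fezf2, 0.13 for Bcl11b, 0.024 for Tbr1, 0.067 for Foxp2 and 0.052 for Neurod6, and KO gave 0.13 for Cux2, 0.12 for Fezf2, 0.015 for Bcl11b and 0.13 for Foxp2. With a library left out, WT values ran from -0.046 to 0.091 for Cux2, -0.054 to 0.039 for Fezf2, -0.072 to 0.0065 for Bcl11b, -0.23 to 0.038 for Foxp2 and -0.21 to 0.050 for Neurod6, and KO from -0.11 to 0.0028 for Cux2. PI KO against PI WT ran from -0.055 to 0.047 for Cux1, -0.036 to 0.10 for Cux2, -0.049 to 0.16 for Rorb, -0.013 to 0.086 for Fezf2 and -0.044 to 0.21 for Neurod6. CL KO against CL WT ran from -0.0058 to 0.099 for Tbr1 and -0.069 to 0.20 for Foxp2, and the interaction from -0.11 to 0.16 for Foxp2. Where not named, the cause was not tested. The lowest and highest value of each group cannot be recovered, which limits what is known of the spread.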
